A study of Mus musculus with 18 samples.

Results

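Genes that differed strongly between the lungs of A/J and C57BL/6 mice, in the same direction under every treatment, were collected and described. They were chosen by their group means: the members are the genes whose A/J group mean lay at least 1.5 log2 units above or below the C57BL/6 group mean in each of 3 treatments, and 52 of 18193 measured genes met the rule. Of these, 25 were higher in A/J and 27 were higher in C57BL/6. Each gene was read from the probe set with the highest mean among those that name that gene alone. Ang, Gbp2b and Itln1, which also passed the threshold, were left out with the Klra and H2- genes, as the rule sets. The rule is made from the strain differences themselves, so these differences are given as descriptions with no test.

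Whole lungs of 18 male mice aged 16 weeks were measured, 1 Affymetrix mouse expression array for each, in 6 groups of 3. All mice, the controls included, had been sensitized to ovalbumin, the egg white protein used as an allergen, by 3 weekly intraperitoneal injections of 100 µg adsorbed to alum. From 7 days after the last injection, they breathed an aerosol on 3 days for 30 min, either of PBS (A/J PBS and C57BL/6 PBS) or of 1% ovalbumin (A/J ovalbumin and C57BL/6 ovalbumin). In the remaining groups, A/J resiquimod and C57BL/6 resiquimod, the ovalbumin aerosol was combined with 3 daily intraperitoneal injections of 100 µg of resiquimod, an agonist of the Toll-like receptor TLR7, begun 1 day before the aerosols. The replicates are biological ones per the labels, which name neither the substrain of C57BL/6 nor any batch. The values are log2 expression from robust multi-array average (RMA), so a difference of 1 is a factor of 2. In whole lung, fewer cells of a type and less RNA per cell cannot be told apart.

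A/J and C57BL/6 are inbred strains, in which nearly every locus is homozygous and carries the allele that became fixed in that strain. Gene families that were duplicated in the mouse lineage, such as the interferon-inducible p200 genes and the Trim genes related to Trim5, are known to vary between strains in sequence and in copy number. A probe set reports a strain difference in the same way whether less transcript is made, a copy is missing or the transcript pairs less well with the probes. Probe sequences were not used here, and these origins cannot be told apart.

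By the rule, the strains stood apart in the group means of every member. In each of the 3 treatments the 3 A/J arrays and the 3 C57BL/6 arrays did not overlap in any of the 52 members, and over all treatments the 9 and 9 arrays did not overlap in 49. The exceptions over all treatments were Igk, Sirpb1a and Gzma. A rule on large gaps between group means largely fixes this separation in advance. The share of all genes without overlap was not counted, so the overlap counts are descriptions only. As the background of these comparisons, limma with Benjamini-Hochberg adjustment called a strain difference for 9.01% of all genes in PBS, 9.27% in ovalbumin and 16.5% in resiquimod with ovalbumin. The rule used these contrasts, so nothing is read from the counts. The median size of the mean strain difference over all genes was 0.0775 log2, and 106, 110 and 131 genes reached 1.5 log2 in the respective treatments.

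**Figure D1:**
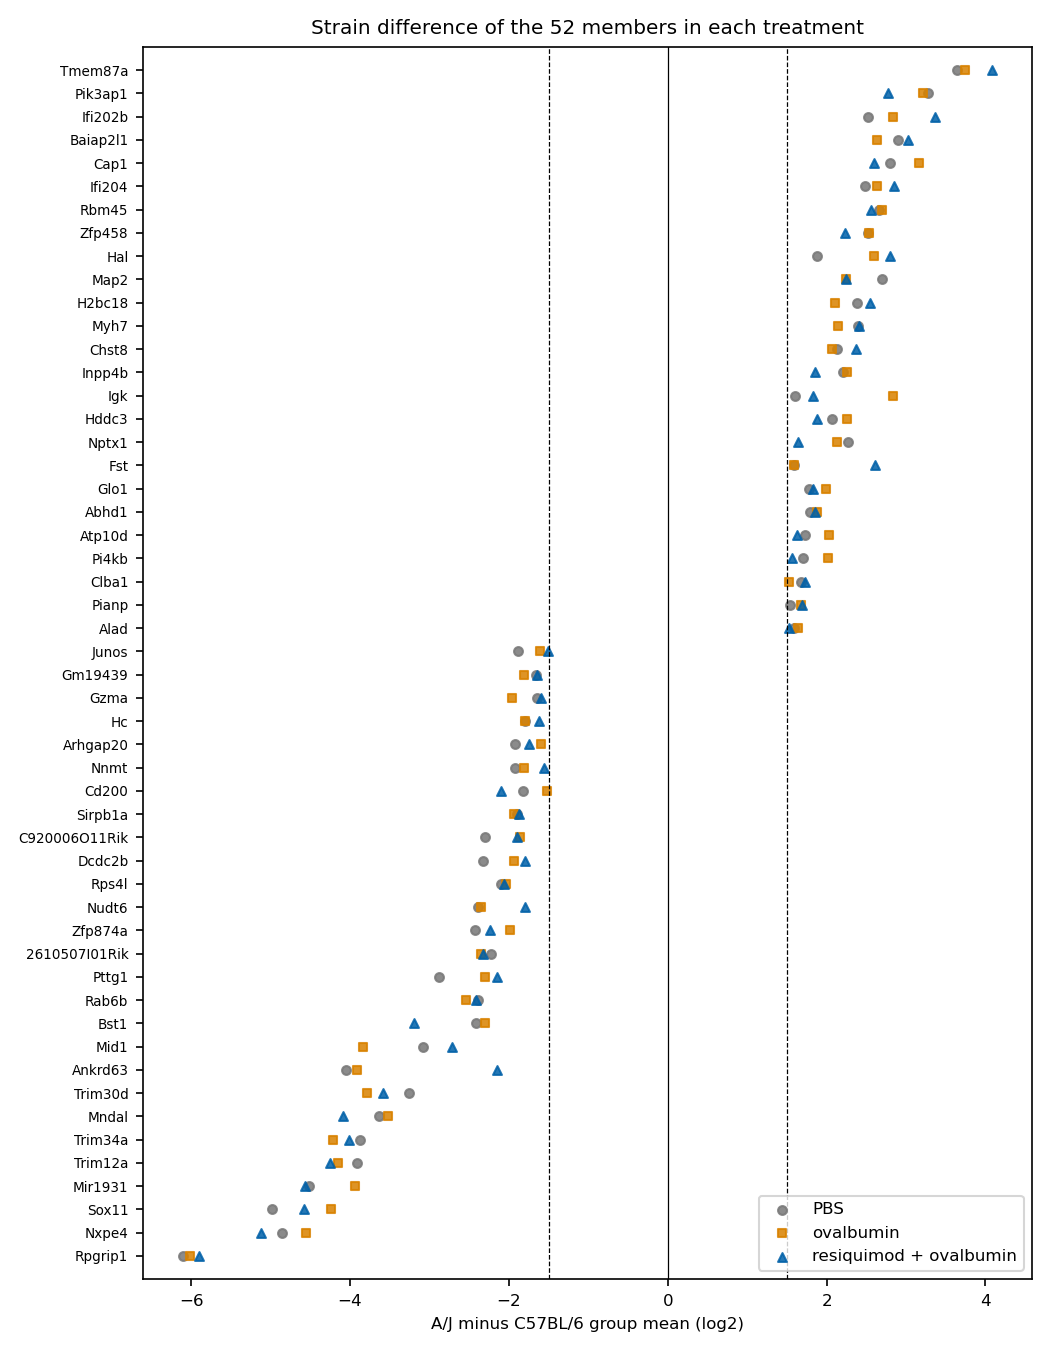
Strain difference of the 52 members on the log2 scale, A/J group mean minus C57BL/6 group mean, with 1 row per gene and 1 symbol per treatment; dashed lines mark 1.5 log2 to either side of 0. Differences run from -6.10 for Rpgrip1 to 4.08 for Tmem87a, and the 3 symbols of a gene lie within 0.5 of each other in 33 members.

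The size of the difference varied widely among members. Among the 27 that were higher in C57BL/6, the smallest of the 3 differences had a median size of 2.15 log2 and reached 5.91, while among the 25 that were higher in A/J its median was 1.88 and it reached 3.64. A smallest size of at least 3 log2 was found for 8 members higher in C57BL/6 and for 1 higher in A/J. In 18 members higher in C57BL/6 and 12 higher in A/J, all group means of the low strain lay under 4.78, the median of all values on the arrays. In those 30 genes the low strain is among the weaker signals, and the stated difference can understate the true one. Between treatments the 3 differences of a member spread by a median of 0.405 log2. The spread was smallest in Rps4l at 0.0589, and it was 1 or more in Igk, Fst, Mid1 and Ankrd63. Within groups, the SD over 3 arrays had a median of 0.169 log2 over the 312 combinations of member and group and exceeded 0.5 in 14 of them.

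The p200 proteins are interferon-inducible proteins that bind DNA in the nucleus or cytosol, and their genes lie side by side on chromosome 1. Of the 8 measured genes of this family, 3 were members, and they did not share a direction. Ifi202b measured between 5.90 and 7.50 in A/J (median 6.58) and between 3.55 and 3.80 in C57BL/6 (median 3.71). Ifi204 measured between 6.10 and 7.40 in A/J (median 6.44) and between 3.50 and 4.48 in C57BL/6 (median 3.99). For both genes every A/J array was above every C57BL/6 array, with differences of 2.52, 2.84 and 3.37 for Ifi202b and of 2.48, 2.64 and 2.85 for Ifi204 in PBS, ovalbumin and resiquimod. Mndal was the reverse. It measured between 4.06 and 5.24 in A/J (median 4.44) and between 7.67 and 8.62 in C57BL/6 (median 8.14), with differences of -3.63, -3.52 and -4.08. Its other probe set gave -6.17 on average over the treatments, at a mean of 2.42 in A/J and 8.60 in C57BL/6.

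Mndal lies next to Ifi204 in the RefSeq order of the measured genes, with none between, and 1 measured gene, Ifi203, lies between Mndal and Ifi202b. Ifi203 differed by -0.57 log2 on average, in the direction of Mndal and at a smaller size. Ifi213, another gene of the family, was lower in A/J, with differences of -2.18, -1.45 and -1.05 in the respective treatments, and missed the rule in 2 of them. The other 3 measured genes, Ifi207, Ifi209 and Aim2, stayed under 1 log2 in every treatment at their brightest probe sets. With the mean of a gene's probe sets, Ifi209 passed the rule, so its difference depends on the probe set. The probe set of Mndal has the suffix _x_at and that of Ifi202b the suffix _s_at, marks of probe sets that can pair with related transcripts, so the split of signal among these relatives is uncertain.

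The promoter of Mndal is shown because a motif of the kind found in interferon-response elements lies close to its start, next to a neighbour that differed the other way. The same motif occurred in Trim30d and Gzma, which are described in the following paragraphs and shown here for comparison, while none was found for Trim12a and Trim34a, the neighbours of Trim30d. Each line gives the 250 bases before the RefSeq start of the gene in build GRCm38.p6, the C57BL/6J reference, read 5′ to 3′ on the strand of the gene, with each match to the motif (GAAA, any 2 bases, then GAAA again, on either strand) in capitals. The windows are chr1:173880188-173880437 for Mndal, chr7:104507850-104508099 for Trim30d, chr13:113100982-113101231 for Gzma and chr7:104315496-104315745 for Trim12a, all on the minus strand, and chr7:104244207-104244456 for Trim34a on the plus strand.
Mndal: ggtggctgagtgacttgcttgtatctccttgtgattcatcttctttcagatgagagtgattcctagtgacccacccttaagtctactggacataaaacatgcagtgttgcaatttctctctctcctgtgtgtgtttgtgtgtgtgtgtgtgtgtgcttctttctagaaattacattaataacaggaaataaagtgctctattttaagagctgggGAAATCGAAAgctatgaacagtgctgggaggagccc
Trim30d: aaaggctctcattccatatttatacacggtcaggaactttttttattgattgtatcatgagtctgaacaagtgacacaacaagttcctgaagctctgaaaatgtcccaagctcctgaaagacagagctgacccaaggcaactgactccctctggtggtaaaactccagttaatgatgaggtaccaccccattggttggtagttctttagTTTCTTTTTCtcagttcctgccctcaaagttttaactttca
Gzma: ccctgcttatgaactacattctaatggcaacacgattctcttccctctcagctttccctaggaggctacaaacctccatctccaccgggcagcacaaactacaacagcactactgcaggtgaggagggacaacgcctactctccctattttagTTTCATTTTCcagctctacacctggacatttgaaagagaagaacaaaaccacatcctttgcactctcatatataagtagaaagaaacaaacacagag
Trim12a: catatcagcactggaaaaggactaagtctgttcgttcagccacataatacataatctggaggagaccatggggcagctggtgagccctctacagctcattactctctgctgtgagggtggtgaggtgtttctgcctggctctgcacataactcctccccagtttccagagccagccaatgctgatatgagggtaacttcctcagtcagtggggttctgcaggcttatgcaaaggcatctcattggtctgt
Trim34a: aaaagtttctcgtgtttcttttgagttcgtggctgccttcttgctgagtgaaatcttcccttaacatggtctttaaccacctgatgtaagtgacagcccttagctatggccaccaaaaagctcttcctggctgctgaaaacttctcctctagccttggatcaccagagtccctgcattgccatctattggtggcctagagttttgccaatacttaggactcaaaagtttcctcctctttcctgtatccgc

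The match ended 26 bases before the start in Mndal, 31 bases before it in Trim30d and 87 bases before it in Gzma. Of the 52 members, 41 had at least 1 window in the RefSeq promoter table, 54 windows in all. The motif, searched on both strands, occurred in 5 of the 54 (9.26%), from Gzma, Mndal, Sirpb1a and Trim30d, against 978 of 32851 windows (2.98%) over all genes. The motif TTCNNNGAA, the core bound by STAT factors, occurred in 5 member windows (9.26%), from Cap1, Ifi202b, Rbm45, Sirpb1a and Zfp458, against 7.02% of all windows. A match is a description of these letters and not a binding site, and the A/J sequence was not used here.

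The Trim genes encode ubiquitin ligases with a RING domain, and a cluster of them related to Trim5, a restriction factor against retroviruses, lies on chromosome 7. Of 14 measured genes in the list of this family, 3 were members, all from the cluster and all higher in C57BL/6. Trim12a measured between 2.49 and 2.83 in A/J (median 2.71) and between 6.35 and 7.11 in C57BL/6 (median 6.83). Trim34a measured between 3.55 and 4.29 in A/J (median 4.05) and between 7.86 and 8.17 in C57BL/6 (median 7.98). Trim30d measured between 2.84 and 3.42 in A/J (median 3.23) and between 6.15 and 7.13 in C57BL/6 (median 6.76). The gap between the nearest arrays of the strains was 3.52 log2 for Trim12a, 3.57 for Trim34a and 2.73 for Trim30d, and all A/J group means lay under the median of all values. The differences in PBS, ovalbumin and resiquimod were -3.91, -4.15 and -4.25 for Trim12a, -3.87, -4.22 and -4.01 for Trim34a, and -3.25, -3.79 and -3.59 for Trim30d.

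Genes between and beside them in the cluster differed less. Trim5, which lies between Trim34a and Trim12a, differed by -0.79 log2 on average, and Trim30a, between Trim12a and Trim30d, by -0.71. Trim12c, a close relative of Trim12a, was higher in A/J, by 0.55, 0.40 and 0.22 in the respective treatments. A second probe set of Trim34a was also higher in A/J, by 1.28 on average, opposite to the first, and a second probe set of Trim12a gave -0.63 and one of Trim30d -1.58. The direction for Trim34a therefore depends on the probe set, and the values of these near-identical relatives are uncertain.

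Among the probe sets that represent the genes, the largest difference was in Rpgrip1, which encodes a protein of the photoreceptor connecting cilium. Its arrays read between 4.17 and 4.90 in A/J (median 4.41) and between 10.31 and 10.54 in C57BL/6 (median 10.43). The gap between the strains was 5.42 log2, and the ratio of their means over the treatments was 64.3. The 3 other probe sets of Rpgrip1 showed mean differences of 0.05, 0.03 and -0.12, and none of them exceeded the median of all values in any group. The difference in Rpgrip1 thus rests on 1 probe set of 4.

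**Figure D2:**
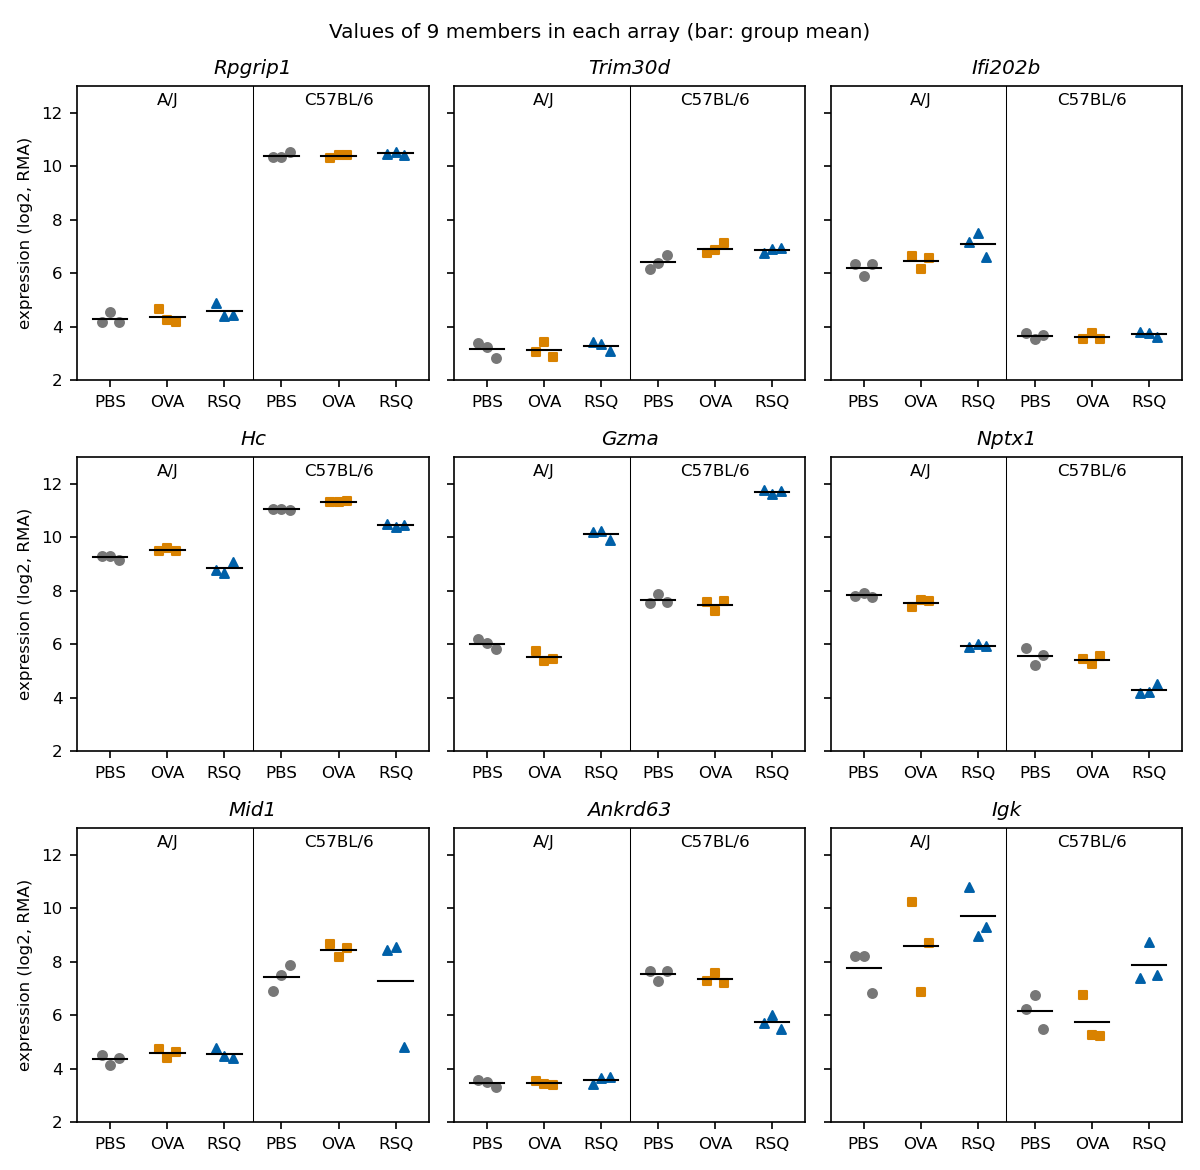
Log2 expression of 9 members in each of the 18 arrays, by strain and treatment (PBS, OVA for ovalbumin, RSQ for resiquimod with ovalbumin), where a point is 1 array and a bar the mean of 3. Rpgrip1, Trim30d and Ifi202b keep apart by strain in all treatments, Gzma, Hc and Nptx1 moved in both strains after resiquimod, and Mid1, Ankrd63 and Igk had the least constant differences among those shown.

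Other large differences toward C57BL/6 were in Nxpe4, Sox11 and the Mir1931 locus. Nxpe4, a member of the neurexophilin and PC-esterase domain family, read between 2.54 and 3.04 in A/J (median 2.84) and between 7.39 and 8.04 in C57BL/6 (median 7.69). Sox11, a transcription factor of neural and embryonic development, read between 3.48 and 4.10 in A/J (median 3.61) and between 7.53 and 8.81 in C57BL/6 (median 8.36). Neither gene had an A/J array within 3 log2 units of a C57BL/6 array. Of the 5 other probe sets of Sox11, 4 passed the threshold in the same direction, with mean differences from -2.15 to -3.08, and the fifth gave -0.74. Nnmt, a methyltransferase of nicotinamide metabolism, lies near Nxpe4 with 4 measured genes between and was also lower in A/J, with differences of -1.92, -1.81 and -1.56. Nxpe2, the gene between them that differed most, differed by -0.92 on average over the treatments.

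The probe set of Mir1931 is tied to this locus by its gene identifier and measures RNA from the locus, not the mature miRNA. It read between 2.85 and 3.71 in A/J (median 3.27) and between 7.39 and 7.96 in C57BL/6 (median 7.66), so no arrays of the strains came close. The mature sequence of mmu-miR-1931 from RefSeq, at chr10:93162879-93162900 on the plus strand of GRCm38.p6, is shown to identify the locus, with the seed (bases 2 to 8) in capitals.
mmu-miR-1931: aUGCAAGGgcuggugcgauggc
Hal, which encodes histidine ammonia-lyase and begins the breakdown of histidine, lies 3 measured genes away and differed in the opposite direction. It measured between 5.09 and 6.75 in A/J (median 5.96) and between 3.02 and 3.70 in C57BL/6 (median 3.48). Liver markers, 5 measured genes, averaged 7.21 in A/J ovalbumin 1 and 8.86 in A/J resiquimod 3, against 3.85 to 4.20 in the other 16 arrays. Hal read 6.56 in the first, the highest of its group, and 6.11 in the second, between the other 2 of its group. The part of liver RNA in Hal was not tested.

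Toward A/J the largest difference was in Tmem87a, a membrane protein of the Golgi. It measured between 8.39 and 8.70 in A/J (median 8.57) and between 4.16 and 5.17 in C57BL/6 (median 4.71), and the differences were 3.64, 3.74 and 4.08. The gap of 3.22 log2 was the widest among the members higher in A/J, and the gene has no other probe set. Rbm45, an RNA-binding protein, also had 1 probe set and differed by 2.66, 2.69 and 2.56.

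Baiap2l1, which links small GTPases to actin at the plasma membrane, measured between 10.20 and 10.63 in A/J (median 10.34) and between 7.23 and 7.84 in C57BL/6 (median 7.55). Cap1, a cyclase-associated protein that recycles actin monomers, measured between 10.21 and 10.54 in A/J (median 10.34) and between 7.003 and 8.40 in C57BL/6 (median 7.52). Both were bright in A/J without overlap with C57BL/6, and both were seen by a second probe set, at mean differences of 2.80 for Baiap2l1 and 3.07 for Cap1. Map2, a microtubule-associated protein of neurons, was higher in A/J by 2.70, 2.24 and 2.25, while its 3 other probe sets, all dim, gave 0.12 to 0.48. Rab6b, a GTPase of Golgi transport, was lower in A/J, with differences of -2.39, -2.54 and -2.42, and its 3 other probe sets gave -1.48, -0.36 and -1.86 on average.

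Mid1, a microtubule-associated ubiquitin ligase encoded on the X chromosome, varied most within a group. Its A/J arrays lay between 4.14 and 4.78. In C57BL/6 it read 6.91, 7.50 and 7.88 after PBS, 8.65, 8.18 and 8.51 after ovalbumin, and 8.45, 8.55 and 4.81 after resiquimod. Resiquimod array 3 of C57BL/6 thus lay 0.03 log2 above the highest A/J array, and the SD of that group was 2.13. Without that array Mid1 remained a member. The 2 other probe sets of Mid1, dim in every group, gave mean differences of -0.12 and 0.09.

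Myh7, the beta heavy chain of cardiac myosin, was higher in A/J. It read between 8.09 and 9.14 in A/J (median 8.69) and between 5.70 and 6.66 in C57BL/6 (median 6.33). The 7 cardiac muscle markers averaged 8.85 to 10.4 in A/J and 8.28 to 10.5 in C57BL/6, and the ranges of the strains overlapped, unlike those of Myh7. The 10 skeletal muscle markers varied more, from 4.61 to 9.64 in A/J and from 4.29 to 8.93 in C57BL/6, also with overlap. The part of either kind of muscle in the values of Myh7 was not tested.

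Enzymes made up another group. Glo1, the glyoxalase that detoxifies methylglyoxal and lies in a segment known to be duplicated in some inbred strains, read between 9.99 and 10.30 in A/J (median 10.14) and between 8.16 and 8.42 in C57BL/6 (median 8.36). Alad, the second enzyme of haem synthesis, measured between 9.16 and 9.51 in A/J (median 9.35) and between 7.60 and 7.92 in C57BL/6 (median 7.74). Both had tight groups, with gaps of 1.56 and 1.23 log2 between the strains. They were the only members among 11 measured genes in a list of redox and mitochondrial enzymes with known strain alleles. All 3 other probe sets of Glo1 were higher in A/J, with mean differences of 1.88, 1.19 and 1.99, and the other one of Alad gave 1.18. Chst8, a sulfotransferase for sugar chains, differed by 2.14, 2.07 and 2.37, and Hddc3, a hydrolase of the HD domain family, by 2.07, 2.26 and 1.88, though a dim second probe set of Hddc3 gave -0.41. Inpp4b, a phosphatase of phosphoinositides, was higher in A/J by 2.20, 2.26 and 1.85, and its second, dim probe set gave -0.02.

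Hc encodes the fifth complement component, and A/J is known to carry an allele that makes no functional protein. It read 9.30, 9.32 and 9.15 in A/J after PBS, 9.49, 9.58 and 9.51 after ovalbumin, and 8.77, 8.67 and 9.06 after resiquimod. In C57BL/6 it read 11.06, 11.05 and 11.04, then 11.31, 11.31 and 11.36, and then 10.50, 10.40 and 10.46. The transcript was lower in A/J, with differences of -1.79, -1.80 and -1.62 and remained well above the median of all values there. Of the A/J arrays with liver transcripts, resiquimod 3 read the highest of its group for Hc and ovalbumin 1 the lowest of its group. The part of liver RNA in Hc was not tested. Hc was the only member among 26 measured complement genes.

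Several members act in leukocytes. Pik3ap1, an adaptor that brings phosphoinositide kinase to B cell and Toll-like receptors, was higher in A/J by 3.27, 3.21 and 2.77, but its second probe set gave -0.25, 0.02 and -0.58, so the difference rests on 1 probe set. Bst1, an ectoenzyme of myeloid and stromal cells, read between 3.03 and 3.48 in A/J (median 3.23) and between 5.07 and 6.56 in C57BL/6 (median 5.81), and its second probe set gave -2.65 on average. Cd200, a ligand that restrains myeloid cells, was lower in A/J, with differences of -1.82, -1.52 and -2.10. Sirpb1a, a paired receptor of myeloid cells, was the only member among 27 measured immunoglobulin-like leukocyte receptors and was lower in A/J, with differences of -1.90, -1.94 and -1.87. Igk, read by a probe set assigned to the immunoglobulin kappa locus, varied widely: A/J arrays ran from 6.85 to 10.81 and C57BL/6 arrays from 5.23 to 8.72, with wide overlap across treatments. Its 3 other probe sets gave mean differences from -0.06 to 0.56.

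Fst encodes follistatin, which binds activins, and was higher in A/J by 1.58, 1.59 and 2.61. Its second probe set agreed in direction with a mean difference of 2.72. Gzma, the gene of granzyme A in cytotoxic lymphocytes, lies on the same chromosome with 7 measured genes between and was lower in A/J, with differences of -1.64, -1.96 and -1.59. Gzmk, the gene between them that differed most, differed by -0.58 on average over the treatments, mostly after resiquimod. Its group means in PBS, ovalbumin and resiquimod were 3.42, 3.25 and 3.29 in A/J and 3.34, 3.52 and 4.85 in C57BL/6. Zfp458, a zinc finger gene, was higher in A/J by 2.52, 2.54 and 2.23 and had a dim second probe set at -0.18, while Zfp874a, with 3 measured genes between, was lower, with differences of -2.42, -1.98 and -2.23.

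Of the other nuclear members, Pttg1, the securin that holds sister chromatids together until anaphase, read between 8.49 and 9.23 in A/J (median 8.95) and between 11.22 and 11.51 in C57BL/6 (median 11.35). Its other probe sets gave -1.25 and -2.74, in the same direction. H2bc18, a histone gene, was higher in A/J by 2.39, 2.11 and 2.55. Nudt6, which overlaps the growth factor gene Fgf2 in antisense, was lower in A/J, with differences of -2.39, -2.35 and -1.80, but a second probe set gave 0.40 in the opposite direction. Whether the arrays separate Nudt6 from Fgf2 was not tested.

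By RefSeq biotype, 43 members are protein-coding, 3 are long non-coding RNAs, 1 is a miRNA locus and 3 are transcribed pseudogenes of the reference. The 3 pseudogenes are Rps4l, Abhd1 and Atp10d. Rps4l was lower in A/J, with differences of -2.10, -2.04 and -2.06, and Abhd1 and Atp10d were higher in A/J, by 1.79, 1.88 and 1.86 and by 1.73, 2.03 and 1.62. Igk has another biotype and Gm19439 has no entry. The members not described with values of their own, namely Pi4kb, 2610507I01Rik, C920006O11Rik, Dcdc2b, Arhgap20 and Gm19439, had differences with sizes between 1.57 and 2.35. The members closest to the threshold were Junos, Clba1, Cd200, Alad and Pianp, with smallest sizes from 1.503 to 1.54. The genes closest below it were Zfp945, Krt79, Slc35a5, Samd5 and D830026I12Rik, from 1.46 to 1.496.

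Members were spread over 18 chromosomes. Of the 51 members placed in the RefSeq order, 14 (27.5%) had another member within 20 measured genes, against 9.94% of the other measured genes that had a member so near. The 14 form 8 neighbouring pairs. Only the pairs Trim34a with Trim12a, Trim12a with Trim30d, and Nxpe4 with Nnmt ran in the same direction, and the 5 others ran in opposite directions. Where measured genes lay between the members of a pair, these genes differed by less than 1 log2 on average over the 3 treatments. In resiquimod alone, group means stood further apart for Gzmk, at 3.29 in A/J and 4.85 in C57BL/6, and for Nxpe2, at 3.04 and 4.07.

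A second reading of the strain difference came from probe sets that the rule did not use. There were 46 of them for 30 members, and the other 22 members had no second one. In 34 of the 46 the sign was the same as in the main probe set in all 3 treatments, and 14 also passed 1.5 log2 in all 3. By gene, 10 members had at least 1 other probe set past the threshold, 6 of these had all of them past it, and 20 had none. In 24 of the 46 at least 1 treatment showed under 1/3 of the difference or the other sign, and 16 of these 24 were under the median of all values in every group. The bright ones that ran against the main probe set on average were those of Trim34a, Nudt6 and Pik3ap1.

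**Figure D3:**
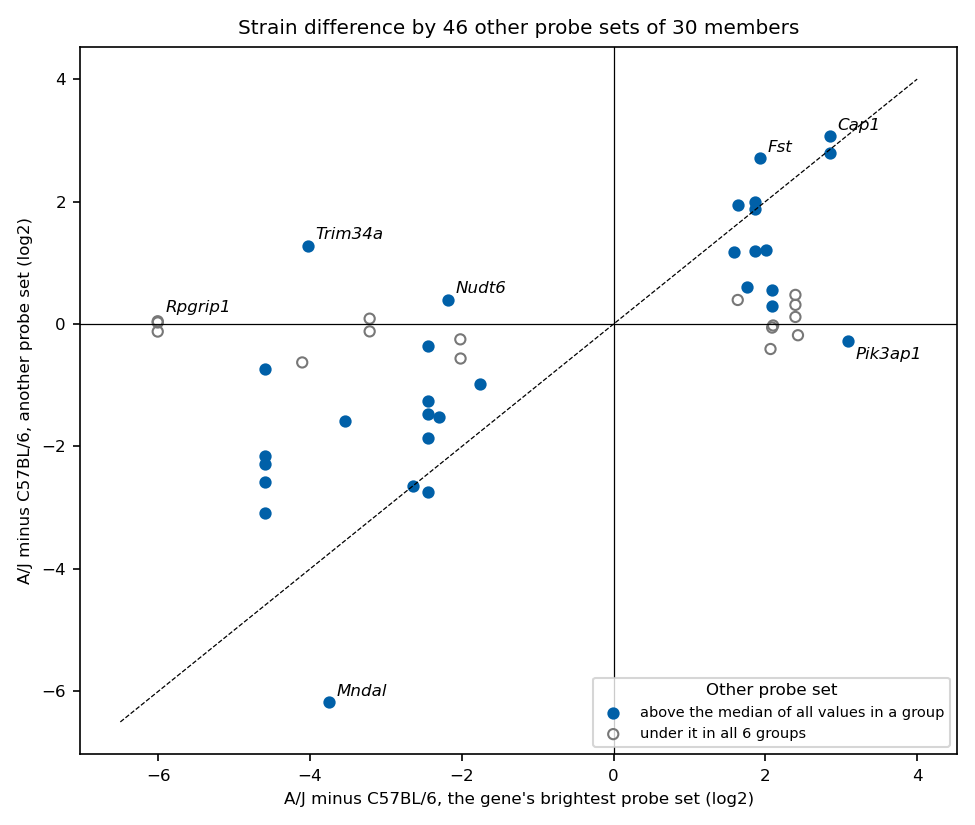
Mean strain difference over the 3 treatments (log2, A/J minus C57BL/6) in the 46 other probe sets of 30 members, on the vertical axis, against that of the brightest probe set of the gene; filled points exceeded the median of all values in a group, open points in none, and the dashed line marks equal values. Mndal (-6.17), Cap1 (3.07) and Fst (2.72) differ at least as much in the second probe set, while Trim34a (1.28), Nudt6 (0.40) and Pik3ap1 (-0.27) lie on the opposite side of 0.

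The response of the members to treatment was tested within each strain, since the rule used no contrast of treatments. These tests share the ovalbumin arrays, so changes in ovalbumin and resiquimod are not independent of each other. In A/J, limma with Benjamini-Hochberg adjustment over all probe sets called 5 of 52 members for ovalbumin against PBS, where it called 4.38% of all genes (3.2% higher and 1.18% lower). Pttg1 rose by 0.46 ± 0.08 (SE, n = 3 and 3, adjusted p = 0.00302 by limma), from 8.62, 8.58 and 8.49 to 9.23, 8.90 and 8.95, and the groups did not overlap. The Mir1931 locus rose by 0.50 ± 0.12 (adjusted p = 0.0279 by limma), from a group mean of 3.05 to 3.56. Both means lay close to 3.33, the 25th percentile of all values, and so near the floor of the arrays. Baiap2l1 fell by 0.37 ± 0.08 (adjusted p = 0.0159 by limma), Rab6b by 0.53 ± 0.14 (adjusted p = 0.0493 by limma) and Gzma by 0.51 ± 0.13 (adjusted p = 0.0494 by limma). Transcripts of squamous epithelium were present in 2 of 3 A/J ovalbumin arrays and in 1 of 3 A/J PBS arrays, and without such arrays, with 1 A/J ovalbumin array left against 2 PBS arrays, 0 of the 5 calls remained. The changes then were 0.36 for Pttg1, 0.75 for Mir1931, -0.40 for Baiap2l1, -0.57 for Rab6b and -0.57 for Gzma, with the lone array assumed to vary like the other groups. The part of squamous tissue in these changes was not tested.

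In C57BL/6 limma called 0 of 52 members for ovalbumin against PBS, where it called 1.59% of all genes. At an unadjusted p under 0.05 there were 6 members, and the share of all genes at that level was not counted. The C57BL/6 PBS group stood apart in Nnt, a mitochondrial transhydrogenase that C57BL/6J mice are known to lack in functional form. Nnt measured 7.07 ± 0.19 (SD, n = 3) there, 8.40 in C57BL/6 ovalbumin and 8.34 in C57BL/6 resiquimod, and 8.22 to 8.46 in the A/J groups. Wdfy1, another gene known to differ among C57BL/6 substrains, measured 6.31 in C57BL/6 PBS and 7.36 and 7.45 in the other C57BL/6 groups. These were the only calls among 9 measured genes in a list of substrain differences (2 higher, 0 lower, median change 0.05 against 0.00473 over all genes). Ide (-0.43) and Fgfbp3 (-0.51) of that list had values of the other sign without a call, and their C57BL/6 PBS arrays were split. Ide read 9.58, 8.51 and 9.62 there, and Fgfbp3 read 4.65, 4.08 and 4.86. Whether Ide and Fgfbp3 mark a substrain here was not tested. No substrain is named in the labels, and in C57BL/6 a difference of substrain and the effect of ovalbumin cannot be told apart.

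More members were called after resiquimod. In A/J limma called 9 of 52 for resiquimod with ovalbumin against ovalbumin alone, 5 higher and 4 lower, where it called 9.77% of all genes (4.38% higher and 5.39% lower). In C57BL/6 it called 12, 7 higher and 5 lower, where it called 10.4% of all genes (5.8% higher and 4.6% lower). The median size of change over members was 0.170 log2 in A/J and 0.252 in C57BL/6, against 0.107 and 0.110 over all genes. In all, 16 members were called in at least 1 strain, and 5, Gzma, Hc, Ifi204, Nptx1 and Sirpb1a, were called in both strains, each with the same sign. The matching shares over all genes were not counted, so these counts are not read as a trait of the members.

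The largest of these changes was in Gzma. It read 5.74, 5.38 and 5.45 in A/J ovalbumin and 10.19, 10.22 and 9.92 in A/J resiquimod, a rise of 4.59 ± 0.13 (SE, n = 3 and 3, adjusted p = 4.31e-12 by limma) or 24.1-fold. In C57BL/6 it read 7.59, 7.23 and 7.63 and then 11.76, 11.63 and 11.72, a rise of 4.22 ± 0.13 (adjusted p = 5.04e-12 by limma) or 18.6-fold. The 18 genes of the NK and cytotoxic list moved alongside: their mean was 4.15 to 4.25 in A/J ovalbumin and 5.51 to 6.12 in A/J resiquimod, and 4.46 to 4.57 and 6.51 to 6.84 in C57BL/6. Limma called 12 of the 18 higher in A/J and 15 in C57BL/6, Gzma included, and 0 lower. Of all genes it called 4.38% higher in A/J and 5.8% higher in C57BL/6. The part of such cells in the values of Gzma was not tested.

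Nptx1, a neuronal pentraxin, was higher in A/J by 2.27, 2.13 and 1.64 in PBS, ovalbumin and resiquimod. Its second probe set gave 1.53, 1.37 and 0.74, and with the mean of its probe sets Nptx1 did not pass the rule. At the main probe set Nptx1 fell in both strains after resiquimod. It went from 7.38, 7.64 and 7.64 to 5.91, 6.01 and 5.94 in A/J, a change of -1.60 ± 0.13 (SE, n = 3 and 3, adjusted p = 1.21e-06 by limma). In C57BL/6 it went from 5.45, 5.27 and 5.55 to 4.16, 4.24 and 4.53, a change of -1.11 ± 0.13 (adjusted p = 5.23e-05 by limma). Over all treatments, 0.05 log2 lay between the lowest A/J array of Nptx1, 5.914 in resiquimod, and the highest C57BL/6 array, 5.865 in PBS. Hc fell by 0.69 ± 0.08 in A/J (adjusted p = 5.55e-05 by limma) and by 0.88 ± 0.08 in C57BL/6 (adjusted p = 4.81e-06 by limma).

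Among the p200 genes, Ifi204 rose by 0.75 ± 0.13 in A/J (adjusted p = 0.00162 by limma), from 6.31, 6.68 and 6.44 to 7.15, 7.40 and 7.15, and by 0.54 ± 0.13 in C57BL/6 (adjusted p = 0.0154 by limma). Ifi202b went from 6.66, 6.16 and 6.58 to 7.19, 7.50 and 6.60 in A/J, 0.62 ± 0.18 (adjusted p = 0.0506 by limma), and missed the threshold. Mndal was not called in either strain. Over the 8 measured p200 genes limma called 2 higher in A/J and 3 in C57BL/6, and of the 14 Trim genes 1 and 2, with 0 lower in both lists. The Trim members were not called in either strain. Of 30 measured genes stimulated by type I interferon, limma called 3 higher and 2 lower in A/J and 5 higher and 1 lower in C57BL/6. The shares over all genes were 4.38% higher and 5.39% lower in A/J, and 5.8% higher and 4.6% lower in C57BL/6.

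Sirpb1a rose by 1.07 ± 0.21 in A/J (adjusted p = 0.00364 by limma) and by 1.01 ± 0.21 in C57BL/6 (adjusted p = 0.00532 by limma). In C57BL/6, Bst1 rose by 1.00 ± 0.21 (adjusted p = 0.00558 by limma), from 5.49, 5.07 and 5.81 to 6.56, 6.27 and 6.53, and Pik3ap1 by 0.90 ± 0.18 (adjusted p = 0.00442 by limma). Bst1 in A/J went from 3.20, 3.23 and 3.04 to 3.26, 3.48 and 3.03, near the floor of the arrays. Smaller rises called in C57BL/6 were in Nxpe4 (0.55) and Atp10d (0.42), and falls in Nudt6 (-0.65) and Baiap2l1 (-0.31). In A/J, Fst rose by 0.76 ± 0.17 (adjusted p = 0.0110 by limma) and Myh7 by 0.74 ± 0.21 (adjusted p = 0.0395 by limma), while Cd200 (-0.48) and Glo1 (-0.23) fell. The cardiac muscle markers moved the other way from Myh7 in the same comparison, with 3 of 7 called lower and 0 called higher. Of all genes, 5.39% were called lower there. The median change of the markers was -1.11, against -0.00261 over all genes, and their part in the value of Myh7 was not tested. Of 18 refits, each without 1 array, 16 did not call Glo1, 12 did not call Cd200 and 6 did not call Myh7, and a fit to the compared groups alone called neither Glo1 nor Cd200. A call in 1 strain is not by itself a difference between strains, which is tested next. The call of Fst was lost without A/J ovalbumin 3 or A/J resiquimod 3, and that of Ifi204 in C57BL/6 without C57BL/6 ovalbumin 1, ovalbumin 3 or resiquimod 3.

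**Figure D4:**
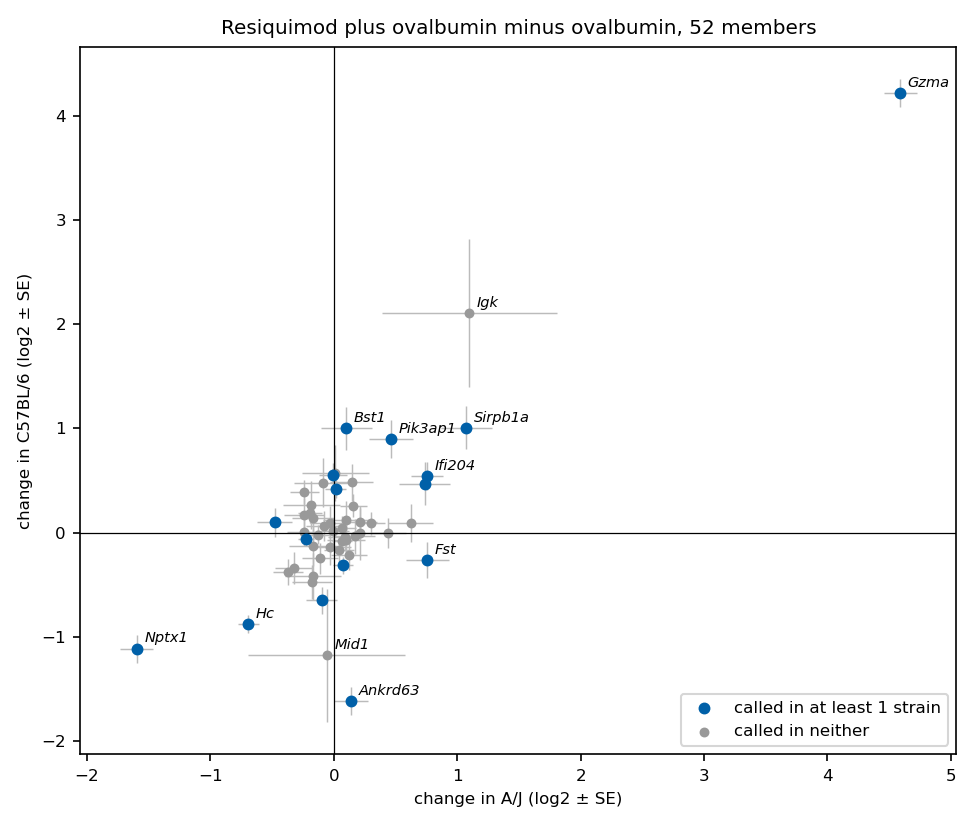
Change of the 52 members between resiquimod with ovalbumin and ovalbumin alone (log2, points with SE) in A/J on the horizontal and C57BL/6 on the vertical axis; blue points were called by limma in at least 1 strain. Gzma rose by 4.59 and 4.22, Nptx1 and Hc fell in both strains, and Ankrd63 fell in C57BL/6 (-1.62) and lies near 0 in A/J.

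The response to resiquimod was tested for a difference between strains as an interaction, A/J minus C57BL/6. The rule bounds the strain difference in both treatments and so is not fully independent of this contrast. Limma called 1 of 52 members, where it called 1.24% of all genes (0.357% higher and 0.879% lower). That gene was Ankrd63, a protein with ankyrin repeats, whose strain differences were -4.05, -3.91 and -2.15. It read 7.28, 7.59 and 7.22 in C57BL/6 ovalbumin and 5.71, 6.02 and 5.51 in C57BL/6 resiquimod, a fall of 1.62 ± 0.14 (SE, n = 3 and 3, adjusted p = 1.38e-06 by limma). In A/J it read 3.54, 3.43 and 3.40 and then 3.42, 3.66 and 3.71, which leaves little room below for a fall to be measured. The interaction was 1.76 ± 0.19 (adjusted p = 0.000404 by limma). For Fst it was 1.02 ± 0.24 and missed the threshold (adjusted p = 0.0604 by limma). For the ovalbumin response limma called 0 of 52 members, where it called 0.0605% of all genes. At an unadjusted p under 0.05 there were 10 members, and the share of all genes at that level was not counted. This contrast includes the C57BL/6 PBS group, where substrain and ovalbumin cannot be told apart. Nnt (-1.38) and Wdfy1 (-1.13) were called in it. No call was made in any of the 6 tests for 33 members, among them Rpgrip1, Tmem87a, Sox11 and the Trim genes. The share of all genes without a call in these tests was not counted, so this count is not read as a trait of the members.

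Across the series, lung markers were high in every array, for example the surfactant gene Sftpc between 13.72 and 13.86. Squamous epithelium markers averaged 7.21 to 8.65 in 8 arrays and 4.22 to 4.74 in the other 10, and the 8 were 4 of 9 in each strain. All replicate 1 arrays except C57BL/6 resiquimod 1 were among the 8. When the rule was applied without the 8 arrays, it again gave 52 genes, 45 of them shared. Without these arrays, 8 of the 27 calls of members in the treatment tests remained, those of Gzma and Nptx1 in both strains and of Hc, Bst1, Pik3ap1 and Ankrd63 in C57BL/6 after resiquimod. The interaction of Ankrd63 was then 2.05 (adjusted p = 0.0620 by limma), with 1 array left in the A/J ovalbumin group.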

How the data were processed

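The deposited table holds log2 expression values that the authors made with RMA from the affy package, per the submitters' processing notes, with no version stated. RMA subtracts background, gives all arrays the same distribution of values and joins the probes of a set, so a change shared by most genes would be removed. All 18 columns were used, with array medians between 4.77 and 4.80, and the number of arrays limits the precision. Tests covered 45037 probe sets, without 64 controls. GEO's platform annotation, updated through RefSeq, names 1 gene for 34945 of them, several for 932 and none for 9160.

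Values were fitted as 6 group means with limma 3.58.1 in R 4.3.3 (12 residual degrees of freedom), with two-sided moderated tests and Benjamini-Hochberg adjustment over all probe sets, at an adjusted p under 0.05. The fit was tested on simulated data. P-values measure the spread between these samples only. Values were named for the 12 largest differences in each direction, up to 6 called members per test and direction, members in 27 gene lists, neighbours, members with discordant probe sets and the 5 genes to either side of 1.5 log2; other members are given as ranges or briefly. Members and lists were chosen with earlier results of these data known. Promoter and miRNA sequences are from RefSeq (GRCm38.p6).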

Additional observations from a re-analysis of the deposited data

Results flagged for a closer look

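The resiquimod response of Ankrd63 differed between the strains by the interaction test. The value was 1.76 log2, A/J minus C57BL/6 (limma, adjusted p = 0.000404), with a fall in 3 of 3 C57BL/6 resiquimod arrays and A/J arrays among the weakest signals throughout. No other probe set names the gene alone.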

How the results depend on the processing

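The number of member genes was 123 at a threshold of 1 log2 and 27 at 2 log2, and from 50 to 54 when 1 array was left out. With the mean of a gene's probe sets it was 38, of which 34 were shared, and Rpgrip1, Pik3ap1, Mid1, Map2, Trim34a and Nudt6 were among those lost. Renormalizing the quantiles gave 51, without Junos. The main fit did not pair samples by replicate number. Residuals of same-numbered arrays correlated between -0.63 and 0.61 (median 0.18), and not every pair exceeded 0.1. For arrays of different number they correlated between -0.60 and 0.68 (median -0.13). Squamous markers averaged 7.40 to 8.52 in all replicate 1 arrays except C57BL/6 resiquimod 1 (4.34). They were also high in C57BL/6 resiquimod 2, A/J ovalbumin 3 and C57BL/6 PBS 3. Whether same-numbered arrays were handled together was not tested. With the replicate number as a block, limma called 3 members for ovalbumin in A/J in place of 5, and 13 for resiquimod in C57BL/6 in place of 12. For ovalbumin in A/J, 3 were called in a fit to the groups compared alone, 3 with the mean of probe sets, 0 without the arrays with squamous transcripts, and 2 to 5 when 1 array was left out. For ovalbumin in C57BL/6, the mean of probe sets gave 1 and leaving out 1 array gave 0 to 1. For resiquimod, leaving out 1 array gave 5 to 9 in A/J and 10 to 14 in C57BL/6, and the fit without arrays with squamous transcripts gave 4 and 7. The interaction counts became 1 for ovalbumin and 2 for resiquimod with an intensity trend and robust prior. For resiquimod the interaction count was 2 among brighter probe sets, 3 with the mean of probe sets, 0 without the arrays with squamous transcripts, and 1 to 3 when 1 array was left out; for ovalbumin leaving out 1 array gave 0 to 0. The cause of these shifts was not tested, apart from the fewer samples in the fits that leave arrays out. The alternative without squamous transcripts was chosen after seeing the data. Of the 27 calls, 17 held in all 18 fits without 1 array and 0 changed sign. The least stable were Glo1 after resiquimod in A/J, lost in 16 of the 18, Rab6b after ovalbumin (14), Gzma after ovalbumin (13) and Cd200 after resiquimod (12), all in A/J. Myh7 (6) and Fst (2) after resiquimod and Mir1931 (4) and Baiap2l1 (3) after ovalbumin, all in A/J, and Baiap2l1 (4) and Ifi204 (3) after resiquimod in C57BL/6 were each lost in the number of fits given. Signal near background limits the low strain in the 30 members described as dim.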
